A study of Mus musculus with 8 samples.

Results

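The anti-Rtl1 miRNAs are the mature products of 8 hairpins that lie side by side in the imprinted Dlk1-Dio3 region of mouse chromosome 12: mmu-miR-337, mmu-miR-540, mmu-miR-665, mmu-miR-431, mmu-miR-433, mmu-miR-127, mmu-miR-434 and mmu-miR-136 (mmu, for mouse, is left out from here on). Members were chosen by name, as every row of these 8 hairpins with its 5p or 3p arm. This gave 16 of the 1099 mature miRNAs listed, and all 16 passed the filter on low values described with the first test.

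The study profiled small RNA while KH2-DGCR8 cells differentiated as embryoid bodies (EBs) and asked what an excess of DGCR8 does to miRNA production. KH2 cells are mouse embryonic stem cells made to carry transgenes switched on by doxycycline (Dox), EBs are floating clumps in which such cells begin to form early lineages, and DGCR8 is the partner of DROSHA in the complex that cuts miRNA hairpins from their primary transcripts. All 8 libraries came from KH2-DGCR8 cells: 4 with Dox, at days 0, 1, 2 and 4 of EB differentiation, and 4 without Dox at the same days. Each condition had 1 library of 1 cell line, so no value has a replicate of its own condition, and the sources used here do not give the length of Dox exposure.

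Rtl1, a gene derived from a retrotransposon, is transcribed from the paternal chromosome, while the noncoding transcripts of the region, which carry its miRNAs, come from the maternal one. miRNAs made from the strand opposite Rtl1 pair fully with its mRNA and are known to direct its cleavage, which limits RTL1 protein in mouse placenta. In mouse embryonic stem cells, expression of the region's maternal transcripts differs between lines and is often lost on imprinting errors.

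All 8 hairpins lie on the plus strand within 9600 bp (GRCm38, the build that UCSC calls mm10). The miRNAs of miR-431, miR-433, miR-127, miR-434 and miR-136 fall inside the coding exon of Rtl1, which GENCODE M21 places on the minus strand (chr12:109589193-109600330), and all 10 of their arms are fully complementary to the Rtl1 transcript. The label holds less directly for miR-337, miR-540 and miR-665. These lie outside the GENCODE gene, the nearest of them ending 2785 bp from it, and are antisense to Rtl1 only under the wider RefSeq gene (chr12:109564900-109604418). Both kinds are described here, and each is named.

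The mature sequences of the arms that carry most of the reads, and of both arms where a hairpin gave many reads from each, are shown to let the seeds be compared. They are from RefSeq (GRCm38.p6), which had an entry for all 16 members, and capitals mark the seed, bases 2 to 8.
miR-127-3p: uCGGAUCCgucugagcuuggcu
miR-434-5p: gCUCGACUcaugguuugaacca
miR-434-3p: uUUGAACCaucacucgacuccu
miR-136-3p: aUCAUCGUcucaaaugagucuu
miR-431-5p: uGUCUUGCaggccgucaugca
miR-431-3p: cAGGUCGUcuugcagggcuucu
miR-433-3p: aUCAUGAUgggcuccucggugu
miR-337-5p: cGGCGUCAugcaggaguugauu
miR-540-3p: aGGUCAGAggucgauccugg
miR-665-3p: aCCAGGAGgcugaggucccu
No 2 of the 16 members share a seed. Only miR-540-3p shares its seed with another listed miRNA, miR-6915-5p, and no member has the same full sequence as another listed miRNA. The hairpin of miR-3071 lies on the strand opposite miR-136 and overlaps it over 62 bases. Whether counting used strand is not stated, so whether reads of that pair were told apart is not known. miR-3071 itself is not among the miRNAs listed.

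Values are RPM, reads scaled to 1 common total, rounded by the authors, and the libraries rested on 362483 to 541342 implied reads, with 630 to 751 miRNAs above 0. miRNAs of the miR-290 cluster, which mark embryonic stem cells, held between 16.3% and 46.1% of the reads, and 14 of their 15 rows were above 0 in every library. Markers of muscle summed to at most 130 RPM, those of blood to at most 1192 RPM, those of endoderm to at most 988 RPM, those of fibroblasts to 1823 to 3640 RPM and those of neural cells to 3102 to 7449 RPM. The miR-302 cluster of epiblast-like cells summed to at most 2369 RPM in 7 libraries and to 35789 RPM at day 4 without Dox. The part of these cell types in the results was not tested. In bulk RNA, fewer cells of a type and less of a miRNA per cell cannot be told apart.

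Together the 16 miRNAs took up a larger share of the small RNA as differentiation went on. With Dox they held 1.42% of reads at day 0, 1.92% at day 1, 2.49% at day 2 and 4.62% at day 4. Without Dox the shares were 1.55%, 1.49%, 3.15% and 4.81% on the same days. Both day 4 libraries stood above all others, both day 0 libraries and the day 1 library without Dox stood lowest, and the first step upward came at day 1 with Dox and at day 2 without it. Scaled to the library totals, the summed reads at day 4 were 3.26 times those at day 0 with Dox (95% counting interval 3.16 to 3.36) and 3.11 times without Dox (3.02 to 3.20). These intervals, like all counting intervals here, cover counting error only and not the spread between cultures.

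miR-127-3p made up most of this sum. Its share of the member values ran from 51.2% to 59.5% over the 8 libraries. By mean level over the libraries the order was miR-127-3p (14480 RPM), miR-434-5p (3806 RPM), miR-136-3p (1689 RPM), miR-434-3p (1607 RPM), miR-540-3p (1230 RPM), miR-127-5p (1213 RPM) and miR-337-5p (908 RPM). miR-433-3p, miR-431-5p, miR-665-3p, miR-431-3p and miR-136-5p followed between 308 and 396 RPM, and miR-337-3p, miR-540-5p and miR-433-5p between 23.8 and 62.8 RPM. miR-665-5p was last, at 0 in 6 libraries. The first and second places held in all 8 libraries, and miR-337-5p exceeded miR-433-3p in all 8. miR-136-3p exceeded miR-434-3p in only 4, miR-433-3p exceeded miR-431-5p in 4, miR-431-3p exceeded miR-136-5p in 4, and miR-540-3p exceeded miR-127-5p in 3, so the order within those pairs varied between libraries. Adapter ligation is known to favour some small RNAs over others, so the order of RPM between miRNAs need not be the order of molecules.

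**Figure D1:**
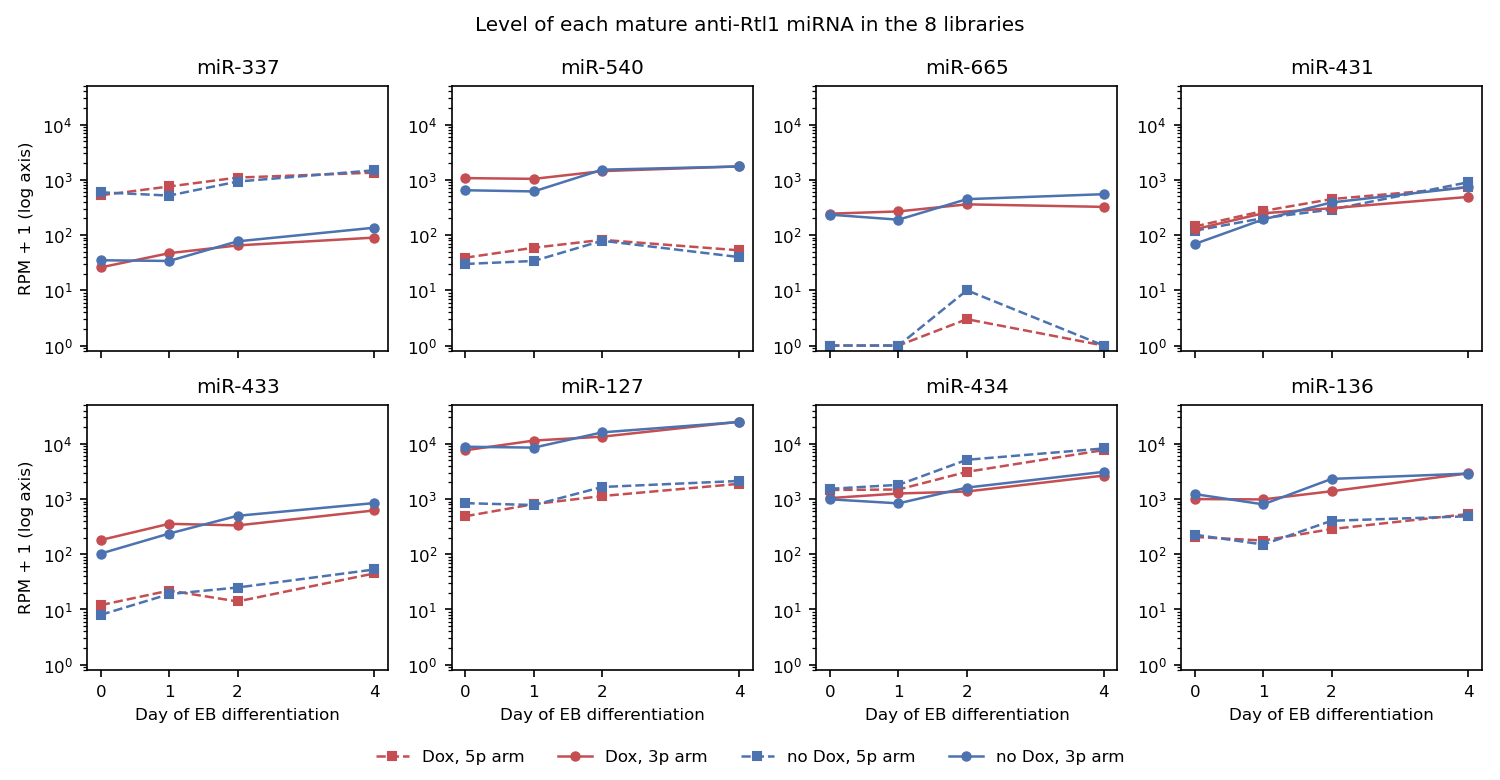
Level of each mature member (RPM + 1, log axis) against day of EB differentiation, 1 panel per hairpin in genome order. Red is Dox, blue is no Dox, circles and solid lines are the 3p arm, squares and dashed lines the 5p arm, and each point is 1 library; miR-127-3p reaches 25054 RPM with Dox and 24776 RPM without Dox at day 4, while miR-665-5p is above 0 only at day 2.

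Among the 5 hairpins inside Rtl1, miR-127 was the most abundant. miR-127-3p, known from human cells to repress BCL6, stood with Dox at 7634, 11441, 13451 and 25054 RPM on days 0, 1, 2 and 4, and without Dox at 8847, 8524, 16113 and 24776 RPM. miR-127-5p, in RPM recomputed from implied reads, stood at 486.5, 807.3, 1132 and 1884 RPM with Dox and at 841.1, 778.1, 1651 and 2124 RPM without Dox. For both arms each day 4 library lay above all libraries of the earlier days.

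miR-434, the second most abundant hairpin, differed between its arms. miR-434-5p had 1457, 1487, 3105 and 7694 RPM with Dox and 1529, 1807, 5134 and 8232 RPM without Dox. miR-434-3p had 1039, 1259, 1368 and 2656 RPM with Dox, against 987, 834, 1611 and 3104 RPM without Dox. Both arms were highest in the day 4 libraries, with a wider gap between day 4 and day 0 for the 5p arm.

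miR-431 and miR-433 were scarcer and, without Dox, showed the widest gap between day 4 and day 0 among the 8 hairpins. miR-431-3p stood at 126, 247, 306 and 490 RPM with Dox and at 68, 191, 389 and 737 RPM without Dox. Its 5p arm, which is known to repress Pax7 in mouse muscle progenitors, stood at 142, 272, 447 and 737 RPM with Dox and at 119, 202, 289 and 905 RPM without Dox. For both arms the values were ordered by day within each treatment, and the day 0 library without Dox was the lowest of the 8.

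miR-433-3p, recomputed from implied reads, had 180.4, 355.4, 331.8 and 620.7 RPM with Dox, against 101.8, 235.7, 495.8 and 844.2 RPM without Dox. miR-433-5p had 7 to 52 RPM, which is 3 to 24 reads. miR-136-3p, whose hairpin is the closest to the start of the Rtl1 reading frame, had 998, 983, 1383 and 2919 RPM with Dox, against 1227, 800, 2313 and 2888 RPM without Dox. In all these miRNAs the day 4 libraries again stood highest. miR-136-5p ran from 149 to 534 RPM, also with its highest values in the day 4 libraries.

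Of the 3 hairpins outside the GENCODE gene, miR-337-5p followed the same course, with 525, 757, 1098 and 1350 RPM with Dox and 594, 518, 930 and 1490 RPM without Dox. miR-540-3p spread less, with 1074, 1041, 1438 and 1751 RPM with Dox and 647, 616, 1525 and 1746 RPM without Dox. miR-665-3p, recomputed from implied reads, had 243.3, 266.5, 359.5 and 323.3 RPM with Dox, against 232.7, 189.0, 446.0 and 549.0 RPM without Dox. The day 4 library with Dox was not the highest for miR-665-3p, and lay below both day 2 libraries. miR-337-3p ran from 25 to 135 RPM and miR-540-5p from 29 to 81 RPM; miR-540-5p was highest at day 2. miR-665-5p was listed at 2 RPM with Dox and 9 RPM without Dox at day 2, which is 1 and 4 reads, and at 0 in the other libraries, where 3 reads would give 5.54 to 8.28 RPM.

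Day 4 was then compared with day 0 over both treatments. The test was limma on log2(RPM + 1), with treatment and day in the model, over the 839 miRNAs that reached 1 RPM in 2 or more libraries, and a Benjamini-Hochberg adjusted p under 0.05 counted as passed. It found 13 of the 16 anti-Rtl1 miRNAs higher at day 4 and 0 lower, against 21.9% higher and 3.81% lower among all miRNAs tested. The median log2 change was 1.55 for the members and 0.56 for all miRNAs. Of the remaining miRNAs of the Dlk1-Dio3 region, 57 of 82 tested rose and 0 fell, with a median of 1.58. The difference between these lists was not tested.

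miR-431-3p rose by 2.68 (SE 0.36, limma adjusted p = 9.92e-12) and miR-431-5p by 2.64 (SE 0.35, adjusted p = 4.32e-12). miR-434-5p rose by 2.41 (SE 0.27, adjusted p = 6.57e-17), while its partner arm miR-434-3p rose by 1.50 (SE 0.28, adjusted p = 1.76e-06). miR-433-3p rose by 2.41 (SE 0.35) and miR-433-5p by 2.32 (SE 0.68). miR-127-3p and miR-127-5p rose by 1.60 (SE 0.24, adjusted p = 5.24e-10) and 1.64 (SE 0.29). The other calls were miR-337-3p at 1.87, miR-136-3p at 1.39, miR-337-5p at 1.34, miR-136-5p at 1.24 and miR-540-3p at 1.07. miR-665-3p changed by 0.82 (SE 0.35, adjusted p = 0.0702), miR-540-5p by 0.43 (SE 0.51, adjusted p = 0.612) and miR-665-5p by 0 (SE 1.06, adjusted p = 1), and these 3 did not pass. Thus all 10 arms of the hairpins inside Rtl1 passed, and 3 of the 6 arms outside the GENCODE gene did, against 21.9% higher among all miRNAs tested. Among the arms that did not pass, miR-665-5p had at most 4 reads in a library and miR-540-5p at most 38. The difference by position was not tested.

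RPM are shares, and the miR-290 cluster summed to 228907 RPM with Dox and 162740 RPM without Dox at day 4, against 404813 RPM with Dox and 460852 RPM without Dox at day 0. Member changes were therefore also computed under other scalings. With median-of-ratios scaling, which brings the median of all miRNAs to 0.01, 10 members remained called and all were higher, with a member median of 0.95. In that scaling 100 miRNAs were higher and 61 lower in all, against 184 higher and 32 lower in RPM. The calls lost were miR-136-5p (0.65, limma adjusted p = 0.205), miR-337-5p (0.74, adjusted p = 0.065) and miR-540-3p (0.47, adjusted p = 0.288). miR-431-3p still stood at 2.09, miR-434-5p at 1.81 and miR-127-3p at 1.00. With each library scaled to its reads outside that cluster, 11 members were called, all higher, with a member median of 1.05. Among all 839 miRNAs tested, 108 were higher and 56 lower in that scaling, with a median of 0.10. The 4 neural marker rows summed to 5258 RPM with Dox and 7442 RPM without Dox at day 4, against 3102 RPM with Dox and 3704 RPM without Dox at day 0. Nearly all of this was miR-9-5p, at 5211 RPM with Dox and 7302 RPM without Dox at day 4, against 2889 RPM with Dox and 3452 RPM without Dox at day 0. miR-124-3p, of the same list, stood lower at day 4, with 20 RPM with Dox and 52 RPM without Dox, against 156 RPM with Dox and 179 RPM without Dox at day 0. The part of neural cells in the result was not tested.

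**Figure D2:**
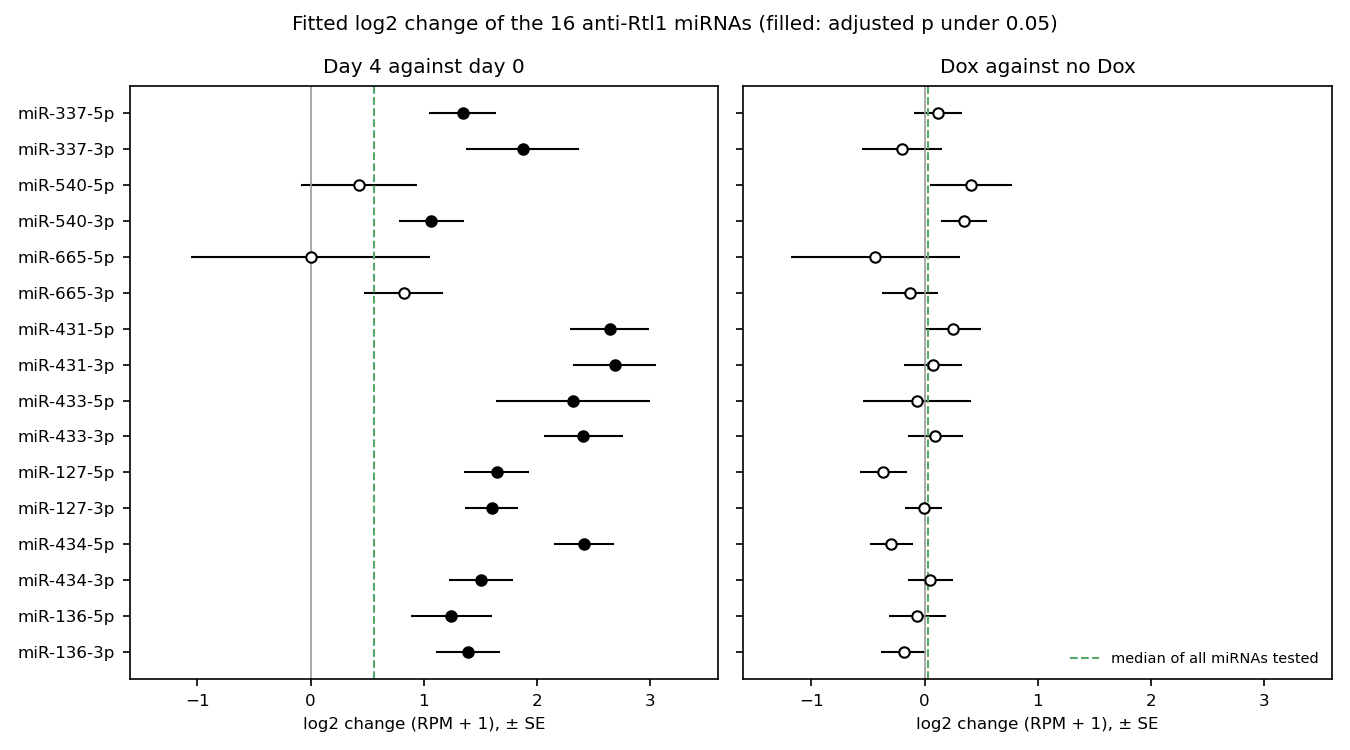
Fitted log2 change (RPM + 1) of the 16 members with its SE, for day 4 against day 0 on the left and Dox against no Dox on the right; filled points have an adjusted p under 0.05 and the dashed line is the median of all 839 miRNAs tested. On the left 13 points are filled and lie between 1.07 and 2.68, and on the right none is filled.

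Within each treatment the counting interval of the ratio of day 4 to day 0 lay above 1 for 14 of 16 members with Dox, against 29.1% of all miRNAs tested, and for 14 of 16 without Dox, against 30.3%. Among the 499 miRNAs averaging 10 RPM or more those shares of all miRNAs were 47.5% with Dox and 48.1% without Dox. The hairpins differed in how far they moved, as ratios of reads scaled to the library totals. miR-431 stood at day 4 at 4.58 times its day 0 level with Dox (95% counting interval 3.70 to 5.72) and 8.79 times without Dox (6.93 to 11.3). The ratios of miR-433 were 3.48 with Dox (2.68 to 4.56) and 8.22 without Dox (6.0 to 11.5). miR-434 reached 4.15 with Dox and 4.51 without Dox. At the low end, miR-665 stood at 1.33 with Dox (1.02 to 1.74) and 2.36 without Dox (1.84 to 3.04), and miR-540 at 1.62 with Dox (1.44 to 1.82) and 2.64 without Dox (2.29 to 3.05). miR-337 stood at 2.62 with Dox and 2.59 without Dox. miR-127 reached 3.32 with Dox (3.19 to 3.45) and 2.78 without Dox (2.68 to 2.88), and miR-136 reached 2.87 with Dox (2.59 to 3.19) and 2.32 without Dox (2.11 to 2.57). Differences between these ratios were not tested beyond the fit of a changing Dox effect given with the Dox comparison.

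**Figure D3:**
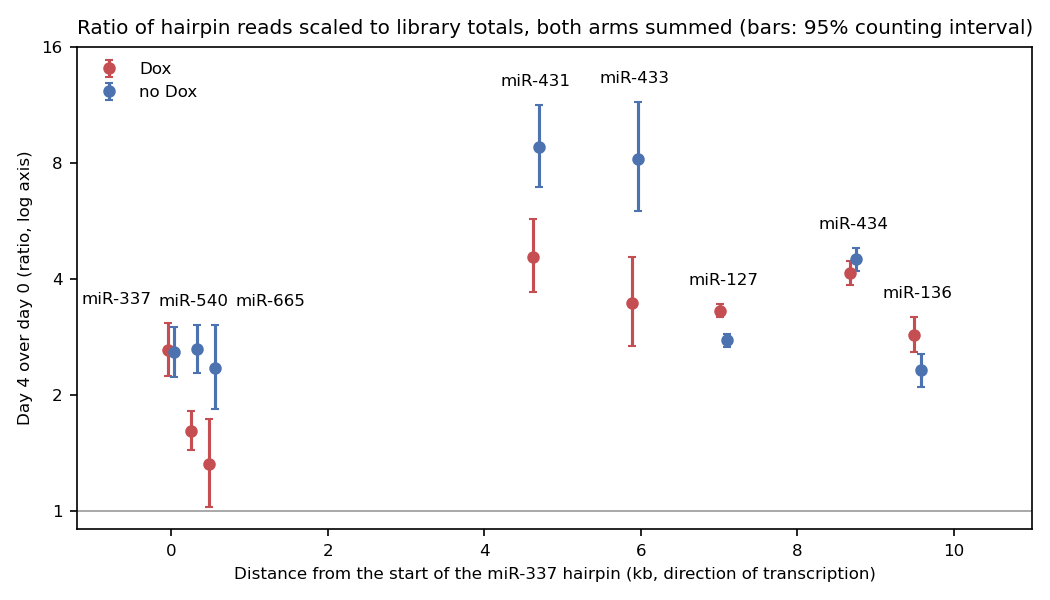
Ratio of hairpin reads scaled to the library totals, both arms summed, at day 4 over day 0 (log axis) against distance from the start of the miR-337 hairpin in kb, with the points of the treatments shifted slightly apart; red is Dox, blue is no Dox, and bars are 95% counting intervals. miR-431 and miR-433 without Dox stand highest, at 8.79 and 8.22, and miR-665 with Dox lowest, at 1.33.

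The makeup of the group shifted with these differences. miR-434 gave 22.4% of member reads at day 4 with Dox and 23.6% without Dox, against 17.6% at day 0 with Dox and 16.2% without Dox. miR-431 gave 2.66% at day 4 with Dox and 3.41% without Dox, against 1.89% with Dox and 1.21% without Dox at day 0. miR-540 held a smaller part at day 4, 3.90% with Dox and 3.71% without Dox, against 7.84% with Dox and 4.37% without Dox at day 0.

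The single steps between days were also tested, in the same limma model. From day 0 to day 1, 2 of 16 members rose, against 8.1% of all miRNAs tested in either direction and 7.03% higher. These were miR-431-3p, by 1.22 (SE 0.36, adjusted p = 0.0147), and miR-433-3p, by 1.09 (SE 0.35, adjusted p = 0.0246). From day 1 to day 2, 2 of 16 rose, against 3.58% in either direction and 2.74% higher. These were miR-434-5p, by 1.28 (SE 0.27, adjusted p = 3.14e-04), and miR-136-3p, by 1.01 (SE 0.28, adjusted p = 0.0132). From day 2 to day 4, 4 of 16 rose, against 9.3% in either direction and 5.48% higher. These were miR-431-5p at 1.18, miR-434-5p at 0.99, miR-434-3p at 0.95 and miR-127-3p at 0.76 (SE 0.24, adjusted p = 0.0202). The members' median was 0.21 for the first step, against 0.37 for all miRNAs, then 0.80 against 0.00, and 0.67 against 0.17.

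The calls for single steps rested on few libraries and on the estimate of the spread. Without limma's robust option 0 members were called in each of the 3 steps, against 13, 0 and 25 of the 839 miRNAs tested. The first step had 0 members called without the day 0 library without Dox, without either day 1 library or without either day 2 library, and 0 with median-of-ratios scaling. It had 3 without either day 4 library. The counts over all 839 miRNAs tested moved too. For the first step 108 were called without the day 4 library with Dox and 107 without the other, against 68 in the main fit. For the second step 67 were called without either day 4 library, against 30. Median-of-ratios scaling called 69 for the first step. Scaling outside the miR-290 cluster called 84 for the third, against 78 in the main fit. The second step had 0 called without either day 1 library or without the day 2 library without Dox, 1 without the day 2 library with Dox, and 6 without either day 4 library. The third step had 0 called without either day 2 library, 6 without the day 4 library with Dox and 2 without the day 4 library without Dox, and 0 with libraries scaled outside the miR-290 cluster.

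Dox was compared with no Dox over the 4 days. None of the 16 members passed (0 called, against 1.91% of all miRNAs tested), nor did any in limma-voom on the implied reads. An unadjusted p under 0.05 was found for 0 members in either, against 88 of 839 miRNAs in limma and 85 in limma-voom. Without either day 1 library 1 member had one, against 82 of 839 miRNAs without the one with Dox and 85 without the other. Without either day 4 library 2 members did, against 105 and 106 of 839 in the same order. The members' median log2 change was -0.04, against 0.03 for all miRNAs, and their changes ran from -0.43 to 0.41. miR-127-5p stood at -0.36 (SE 0.21, adjusted p = 0.568), miR-540-3p at 0.35 (SE 0.20, adjusted p = 0.590) and miR-434-5p at -0.29 (SE 0.19, adjusted p = 0.645). For the most abundant member, miR-127-3p, the change was -0.01 (SE 0.17, adjusted p = 1). A p that misses the threshold does not show that Dox left these miRNAs alike. Of single members, miR-540-5p was higher with Dox on all 4 days and miR-434-5p lower on all 4, patterns that 6.91% and 6.67% of all miRNAs tested showed.

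Day by day the members moved with Dox in opposite directions. Their summed ratio of Dox to no Dox was 0.916 at day 0 (95% counting interval 0.883 to 0.950), 1.29 at day 1 (1.25 to 1.33), 0.790 at day 2 (0.770 to 0.810) and 0.960 at day 4 (0.942 to 0.979). At day 0 the interval of 3 members lay above 1 and that of 3 below it, against 10.7% and 7.87% of all miRNAs tested. At day 1 it lay above 1 for 8 members and below for 1, against 12.4% and 8.82%. At day 2 it lay above 1 for 2 and below for 9, against 10.5% and 15.3%. At day 4 it lay above 1 for 0 and below for 8, against 14.4% and 18.1%. Abundant miRNAs have narrower intervals: among those averaging 10 RPM or more, 20.6% lay above 1 at day 1, 25.5% below at day 2 and 29.1% below at day 4. With 1 library per condition, a difference between Dox and no Dox at 1 day cannot be told apart from one between cultures or libraries. miR-665-5p has no ratio at days 0, 1 and 4, where both libraries are at 0.

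**Figure D4:**
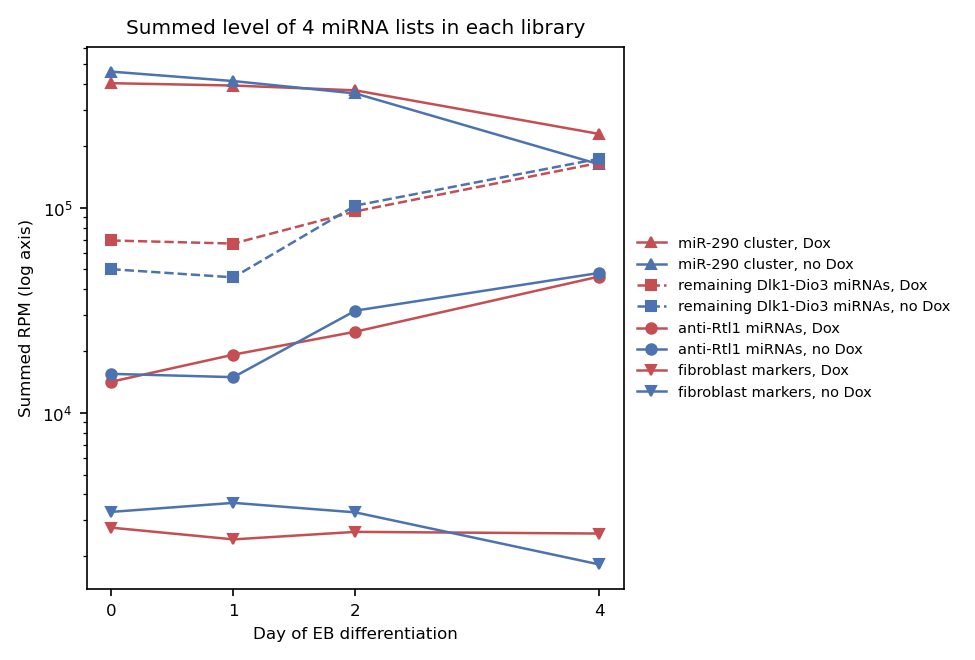
Summed RPM (log axis) of 4 lists of miRNAs in each library against day of EB differentiation; red is Dox, blue is no Dox. The anti-Rtl1 miRNAs and the remaining Dlk1-Dio3 miRNAs are highest at day 4, where the members reach 46198 RPM with Dox and 48107 RPM without Dox, while the miR-290 cluster is lowest there.

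The ratio of Dox to no Dox changed along the days most for miR-431-3p and miR-433-3p. For the miR-431 hairpin it was 1.44 at day 0 (95% counting interval 1.05 to 1.96), 1.32 at day 1, 1.11 at day 2 and 0.747 at day 4 (0.668 to 0.836). For miR-433 it was 1.75 (1.19 to 2.61), 1.49, 0.663 and 0.742 (0.637 to 0.864) on the same days, and for miR-540 it was 1.64, 1.69, 0.947 and 1.01. A limma model that let the Dox effect change linearly with day gave slopes of -0.37 log2 per day for miR-431-3p (SE 0.16, adjusted p = 0.373) and -0.34 for miR-433-3p (SE 0.16, adjusted p = 0.382). For miR-431-5p the slope was -0.15 (SE 0.16, adjusted p = 0.767). None of the 16 members passed (0 called, against 0.954% of all miRNAs tested). miR-431-3p and miR-433-3p, 2 of 16, had an unadjusted p under 0.05 in limma, against 95 of the 839 miRNAs tested. In limma-voom 2 members did, also against 95 of 839. Slopes were above 0 for 4 of 16 members, for 11 of 82 remaining Dlk1-Dio3 miRNAs and for 378 of the 839 miRNAs tested, with medians of -0.08, -0.21 and -0.04. Without the day 4 library with Dox or the one without Dox, the slope of miR-431-3p was -0.61 and that of miR-433-3p -0.70, and neither passed. Over all fits without 1 library the slopes ran from -0.613 to -0.291 for miR-431-3p and from -0.696 to -0.284 for miR-433-3p. Without either day 0 library 0 members had an unadjusted p under 0.05, against 68 of 839 miRNAs without the one with Dox and 69 without the other. With libraries scaled outside the miR-290 cluster 0 members did, against 73 of 839, and slopes were above 0 for 7 of 16.

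The remaining Dlk1-Dio3 miRNAs, 85 rows, summed to 45757 to 173399 RPM, and members stood to them at a ratio of 0.205 to 0.326. At day 0 that ratio was 0.205 with Dox and 0.309 without Dox, and at day 4 it was 0.279 with Dox and 0.277 without Dox. The day 0 difference lay in the remaining miRNAs more than in the members: they summed to 69231 RPM with Dox and 50160 RPM without Dox, while the members summed to 14184 RPM with Dox and 15489 RPM without Dox. The other hairpins listed as opposite to Rtl1, those of miR-3070, summed to 2 to 7 RPM, which is 1 to 3 reads.

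A hairpin can give a mature miRNA from either arm, and which arm is kept is a property of its duplex that can differ between cells. Most of these hairpins kept 1 dominant arm throughout. The 3p arm gave 90.7% to 94.0% of reads for miR-127, 94.7% to 97.8% for miR-540, 93.0% to 96.3% for miR-433, 82.9% to 85.6% for miR-136 and 97.9% to 100% for miR-665. miR-337 was the opposite case, with 4.48% to 8.32% of reads from the 3p arm. Only miR-431, at 36.4% to 57.3%, and miR-434, at 23.9% to 45.9%, gave over 20% of their reads from each arm in every library.

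The arms of miR-434 shifted with day. Its 3p share was 41.6%, 45.9%, 30.6% and 25.7% with Dox on days 0, 1, 2 and 4, and 39.2%, 31.6%, 23.9% and 27.4% without Dox. At day 4 the exact 95% binomial intervals were 24.5% to 26.8% with Dox and 26.0% to 28.8% without Dox, against 38.4% to 44.9% with Dox and 36.2% to 42.3% without Dox at day 0. Averaged over treatments the share was lower by 13.9 percentage points at day 4 than at day 0, the 10th largest fall among the 256 hairpins with both arms compared. Averaged in the same way, the other 7 hairpins differed by at most 2.27 points. For miR-431 this average hides opposite moves: its 3p share at day 4 was 39.9% with Dox and 44.9% without Dox, against 46.9% with Dox and 36.4% without Dox at day 0, with day 0 intervals of 36.8% to 57.3% with Dox and 25.7% to 48.1% without Dox. The 3p share of miR-127 was higher with Dox on all 4 days, at 94.0%, 93.4%, 92.2% and 93.0%, against 91.3%, 91.6%, 90.7% and 92.1% without Dox. That of miR-337 was lower with Dox on all 4 days. Of the 256 hairpins 5.08% and 5.47% showed such patterns, and no test was made of arm shares.

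**Figure D5:**
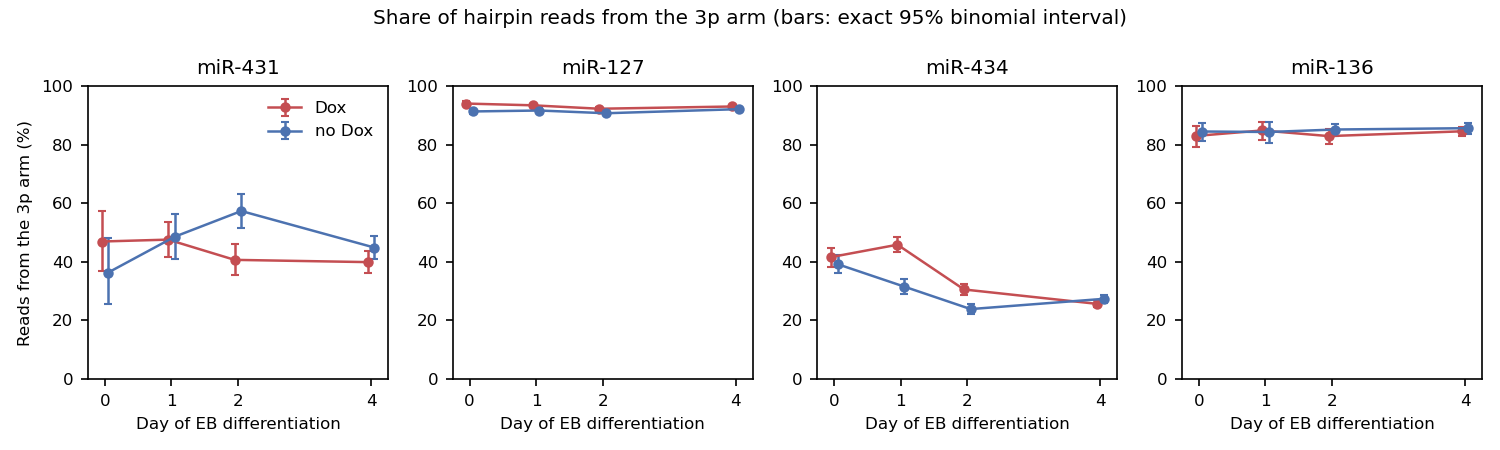
Share of hairpin reads from the 3p arm (%) against day of EB differentiation for miR-431, miR-127, miR-434 and miR-136; red is Dox, blue is no Dox, and bars are exact 95% binomial intervals of 1 library each, which cover counting error only. The share of miR-434 is 25.7% with Dox and 27.4% without Dox at day 4, and that of miR-127 stays between 90.7% and 94.0%.

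Across the 8 libraries, the 5 other miRNAs whose log2 level was most like the summed members were, by Pearson correlation, miR-382-5p (0.985), miR-29c-3p (0.983), miR-29a-3p (0.983), miR-667-5p (0.978) and miR-134-5p (0.978), out of 484 compared, all averaging 10 RPM or more. miR-382, miR-667 and miR-134 belong to the Dlk1-Dio3 region. miR-382-5p stood at 831, 1176, 1999 and 2980 RPM with Dox and at 827, 852, 2064 and 3542 RPM without Dox, with the same early step at day 1 with Dox and at day 2 without it. miR-29a-3p and miR-29c-3p, near-identical copies from other loci whose reads the counting may share, stood at 1101 and 1090 RPM at day 4 with Dox, against 312 and 298 RPM at day 0 with Dox. Of the 20 most alike, 14 were remaining Dlk1-Dio3 miRNAs, of which 69 were compared. These points share their libraries, treatment and days, and the correlations are descriptions.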

How the data were processed

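Per the labels' protocols, total RNA came from TRIzol and libraries from an NEBNext small RNA kit. The deposited values are scores, 1 whole number per mature miRNA and library, which sum to between 999965 and 1000047 and were read as RPM rounded by the authors. Bowtie and mm10 are named in the submitters' processing notes, without role or version. Not given in the sources used here are the counting, the miRNA annotation and how reads matching several miRNAs were treated. 1 row naming no miRNA was left out.

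Implied reads are the smallest total per library for which every value is a whole number of reads within 0.5 RPM. Such a total, which by definition matches 100% of values, was found for all 8 libraries. Within the limited range of totals searched, 5 libraries allowed larger totals too, so counting intervals are the widest of those found. Totals above that range were not looked for. Ratios have exact conditional binomial intervals and shares exact binomial (Clopper-Pearson) intervals at 95%, on implied reads; PCR copies are not independent molecules.

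The planned test for normalized values was used: limma 3.58.1 in R 4.3.3 on log2(value + 1), with trend and robust options, treatment and day as a factor, and 3 residual degrees of freedom. Fold changes on this scale understate those of low miRNAs. The model of a changing Dox effect left 2. The prior degrees of freedom were infinite for all but 39 miRNAs, so SEs come from the trend over miRNAs and can understate the spread of single miRNAs. All comparisons share libraries. Whether each library had its own culture is not stated in the labels. With 1 library per condition, the residual of the main model measures how the Dox effect varies between days. The p-values therefore do not measure the spread between libraries or cultures of 1 condition. The code was tested on simulated data. Python 3.11.15 with scipy 1.17.1 was used for the remaining steps. Named miRNAs are all rows of the 8 hairpins and the 5 most alike. The members, lists and tests were chosen with earlier results of these data known.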

Additional observations from a re-analysis of the deposited data

How the results depend on the processing

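The Dox comparison is paired by day, since each day holds 1 library of each treatment and day is a term of the model. The 13 members called higher at day 4 remained called with a pseudocount of 0.5 or 5, no filter, a mean of at least 10, limma without the robust option and limma-voom, 10 of them with median-of-ratios scaling and 11 with libraries scaled outside the miR-290 cluster. The number of members called there ran from 10 to 14 over the fits without 1 library, with 10 without the day 0 library without Dox, where miR-136-5p, miR-433-5p and miR-540-3p were lost. Without the day 0 library with Dox 12 were called and miR-136-5p was lost, and without the day 4 library with Dox miR-665-3p was called as well. miR-540-5p, not called, changed sign to -0.156 and -0.062 under these scalings. Over the fits without 1 library, members called ran from 0 to 3 for day 1 against day 0, 0 to 6 for day 2 against day 1, 0 to 6 for day 4 against day 2, and 0 to 0 for Dox and for its change with day.

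An alternative chosen after seeing the data kept the rows at 0 in every library, whose lack of any spread enters the trend. It called 30 miRNAs and 2 members for day 4 against day 0, 1 and 0 for day 1 against day 0, 2 and 0 for day 2 against day 1, 3 and 0 for day 4 against day 2, and 0 miRNAs for Dox and for its change. Without the robust option 0 miRNAs were called for Dox and 0 for its change, 13 miRNAs and 0 members for day 1 against day 0, 0 and 0 for day 2 against day 1, and 25 and 0 for day 4 against day 2. The Dox comparison called 0 miRNAs with no day term and 1 with day as a number. The change of the Dox effect had 5 miRNAs called with no filter and 0 with days 2 and 4 set against days 0 and 1. Members called for day 1 against day 0 were 0 with median-of-ratios scaling and 1 with limma-voom, against 69 and 57 of 839 miRNAs. Those for day 2 against day 1 were 4 with a mean of at least 10, against 43 of 499 miRNAs. Those for day 4 against day 2 were 0 when scaled outside the miR-290 cluster, against 84 of 839. The causes were not tested.

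Over the fits without 1 library the count of all miRNAs called ran from 1 to 12 for Dox (1 without either day 2 library), 118 to 218 for day 4 against day 0 (118 without the day 0 library without Dox), 7 to 108 for day 1 against day 0, 0 to 67 for day 2 against day 1, 1 to 122 for day 4 against day 2 and 0 to 12 for the change of the Dox effect. Dox changes of members, none called, crossed 0 in such fits for miR-127-3p (-0.152 to 0.076), miR-434-3p (-0.129 to 0.148), miR-431-3p (-0.188 to 0.301), miR-665-3p (-0.338 to 0.081), miR-136-5p (-0.165 to 0.08), miR-337-5p (-0.027 to 0.215), miR-433-3p (-0.144 to 0.319), miR-136-3p (-0.341 to 0.005) and miR-433-5p (-0.287 to 0.187). With limma-voom that of miR-431-3p was -0.062 and that of miR-433-3p -0.012. Depth limits miR-665-5p, miR-433-5p, miR-337-3p and miR-540-5p, which had at most 49 reads in a library.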
